A study of Mus musculus with 14 samples.

Results

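The genes described here are 9 proneural bHLH factors: Neurog1, Neurog2, Neurog3, Neurod1, Neurod2, Neurod4, Neurod6, Atoh1 and Ptf1a. They were taken by name from the 23152 loci of the RNA-seq tables, through their RefSeq identifiers, and the ChIP-seq peaks within 50 kb of each gene start were added. The study asked what TAF9B, a paralogue of a core promoter recognition subunit, does as mouse ES cells become motor neurons. RNA was sequenced from ES cells and from embryoid bodies (EBs) treated with retinoic acid and the smoothened agonist SAG for 2, 4 or 6 days, each from the JM8 line on a C57BL/6 background (labelled WT) and from Taf9b_BG10, a single clone in which a LacZ-Neo cassette stands in place of the coding exons of the X-linked Taf9b gene (labelled KO). Lumbar spinal column of newborn littermates was sequenced from 1 WT and 1 KO sample, and newborn spinal cord from a WT sample. The tissue samples carry the name of a cell line among their labels as well. TAF9B and RNA POL2 (POL2) were mapped by ChIP-seq in EBs differentiated for 8 days from HBG3, a different ES line with a GFP reporter driven by the motor neuron gene Mnx1, so the peaks and the RNA levels come from other lines and other days. There was 1 library per condition, so no value below has a replicate error and no difference was tested.

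Proneural factors are basic helix-loop-helix (bHLH) transcription factors that commit dividing neural progenitors to become neurons. They bind the E-box, CANNTG, as dimers with the widely expressed E proteins, and Id proteins hold the E proteins away from them. Through Delta ligands they activate Notch in the neighbouring cells, where Hes and Hey repressors keep proneural genes silent. Neurog1 and Neurog2 act first, in ventral spinal cord progenitors and sensory ganglia. Neurod1 and Neurod4 follow in newborn neurons, Neurod2 and Neurod6 act in maturing neurons, Atoh1 and Ptf1a belong to dorsal progenitors that give excitatory and inhibitory interneurons, and Neurog3 is best known from the endocrine pancreas.

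The targeted gene went against its label in the cultures. At all 4 culture stages the KO-labelled library held more Taf9b RNA than its WT-labelled counterpart, by 2.51, 2.98, 1.12 and 1.55 on the log2 scale in ES cells and at days 2, 4 and 6, with 4.01 FPKM (labelled KO) against 1.37 (labelled WT) at day 6. In spinal column it was lower in the library labelled KO, at 3.31 against 6.65 FPKM. Values joined by "against" are given with the KO label first, and values joined by "and" with the WT label first. The tables do not show which part of the transcript the reads cover, so conditions are named below by their labels only. FPKM (fragments scaled to transcript length and library size) takes length into account, so it can be compared between genes, but the 6 tables were normalized separately, and ES cell values labelled WT were 1.09 times higher, at the median locus, in the table shared with spinal cord. Read depth is unknown, since the tables give no read counts.

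TAF9B peaks lay within 50 kb of 7 of the 9 factors, where 53.2% of all 21878 loci with a known strand have such a peak. With only peaks scoring above the list median it was 3 of 9, where 37% of all loci had one. The exceptions were Neurod4 and Neurod6, whose nearest TAF9B peaks were 262 and 289 kb away. There were 12 such peaks, and Neurog2 alone had 3. At Neurog2, Neurod1, Atoh1 and Ptf1a a TAF9B peak lay within 500 bp of the gene start, 4 of 9 factors, against 17.8% of all loci. These peaks were upstream of the start by 423 bp at Neurog2, 82 bp at Neurod1, 59 bp at Atoh1 and 76 bp at Ptf1a. They are shown because they place TAF9B at the gene start, in mm9 coordinates, on the strand of the gene, with each E-box (CANNTG) in capitals.
Neurog2, chr3:127335508-127335772, plus strand: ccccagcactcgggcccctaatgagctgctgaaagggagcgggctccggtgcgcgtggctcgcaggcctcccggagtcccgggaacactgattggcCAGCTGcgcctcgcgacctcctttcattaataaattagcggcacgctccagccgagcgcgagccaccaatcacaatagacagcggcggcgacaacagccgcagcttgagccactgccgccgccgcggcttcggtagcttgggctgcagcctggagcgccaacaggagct
Neurod1, chr2:79296797-79296954, minus strand: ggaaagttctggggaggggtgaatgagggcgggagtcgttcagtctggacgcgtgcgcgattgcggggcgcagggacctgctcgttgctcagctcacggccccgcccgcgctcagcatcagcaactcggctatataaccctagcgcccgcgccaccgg
Atoh1, chr6:64678984-64679179, plus strand: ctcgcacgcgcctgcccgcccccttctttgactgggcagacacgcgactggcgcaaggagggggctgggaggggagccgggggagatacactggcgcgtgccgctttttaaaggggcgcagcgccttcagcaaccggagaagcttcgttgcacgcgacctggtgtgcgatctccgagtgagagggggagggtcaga
Ptf1a, chr2:19367072-19367356, plus strand: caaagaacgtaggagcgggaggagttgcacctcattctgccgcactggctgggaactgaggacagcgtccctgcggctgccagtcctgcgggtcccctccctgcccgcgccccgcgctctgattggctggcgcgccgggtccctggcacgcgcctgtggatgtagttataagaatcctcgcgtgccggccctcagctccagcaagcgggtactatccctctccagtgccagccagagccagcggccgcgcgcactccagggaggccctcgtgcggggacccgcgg
Only the Neurog2 peak holds an E-box, CAGCTG; the other three gene-start peaks hold none. By GENCODE vM1 the midpoints of the Neurog2 and Atoh1 peaks are intergenic. The Ptf1a midpoint falls in an intron of Gm13336, a transcript on the opposite strand. The Neurod1 midpoint falls in an exon shared by Neurod1 and Cerkl, because GENCODE starts Neurod1 further upstream than the RefSeq locus of the tables does. The Neurod1 locus (chr2:79292798-79296793) lies within the extent of Cerkl on the same strand, so reads of overlapping Cerkl transcripts could not be told apart from it in the tables.

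The remaining Neurog2 peaks and the single Neurog1 peak lay further out, and for all 3 the factor named was the nearest gene. The Neurog2 peaks were 7.67 kb upstream and 6.89 kb downstream of the start, on both sides of a gene of chr3:127336063-127338549. The Neurog1 peak was 30.0 kb downstream, beyond the 3′ end of a minus-strand gene of chr13:56351860-56353524. They are shown as the distal peaks of the factors with the highest levels, in the same format.
Neurog2, chr3:127328280-127328508, plus strand: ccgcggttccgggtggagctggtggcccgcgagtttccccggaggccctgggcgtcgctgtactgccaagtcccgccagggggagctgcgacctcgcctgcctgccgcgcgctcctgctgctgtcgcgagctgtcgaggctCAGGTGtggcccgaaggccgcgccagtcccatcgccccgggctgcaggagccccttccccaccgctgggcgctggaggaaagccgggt
Neurog2, chr3:127342848-127343063, plus strand: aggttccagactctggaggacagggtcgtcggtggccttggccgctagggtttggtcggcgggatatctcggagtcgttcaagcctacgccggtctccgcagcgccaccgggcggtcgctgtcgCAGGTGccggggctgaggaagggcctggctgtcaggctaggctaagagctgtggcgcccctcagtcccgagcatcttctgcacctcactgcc
Neurog1, chr13:56323404-56323577, minus strand: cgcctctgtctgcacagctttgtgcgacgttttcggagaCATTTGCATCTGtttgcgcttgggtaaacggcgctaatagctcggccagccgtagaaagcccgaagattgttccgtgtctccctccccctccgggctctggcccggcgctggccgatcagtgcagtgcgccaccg
Both distal Neurog2 peaks hold CAGGTG, and the Neurog1 peak holds CATTTG followed directly by CATCTG. The ChIP-qPCR primer pair that the study lists for Ngn2 (Neurog2) as distal matches chr3:127335522-127335689, centred 458 bp upstream of the start. The forward primer is cccctaatgagctgctgaaa and the reverse primer is gccgctgtctattgtgattg. All 168 bp of that amplicon lie inside the gene-start peak, and neither of the peaks further out is covered by it.

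The 5 remaining TAF9B peaks lay between 19.0 and 42.8 kb from their factor, and 3 of them were nearer to another gene. The Neurog3 peaks, 27.7 and 30.9 kb upstream, were both closer to Fam241b. Neurod1 had a peak 42.8 kb upstream with Neurod1 as its nearest gene. Of the Neurod2 peaks, the one 19.0 kb upstream sat 65 bp from the start of Ppp1r1b, which encodes the dopamine signalling protein DARPP-32, and the one 35.1 kb downstream was nearest to Neurod2 itself. Peak scores ran from 51.1 at the distal Neurod2 peak to 148.79 at Ptf1a, against a list median of 83.3. Among the gene-start peaks, Ptf1a at 148.79 and Neurog2 at 119.98 were above the median, and Atoh1 at 57.95 and Neurod1 at 51.66 were close to the lowest score in the list, 50.04.

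**Figure D1:**
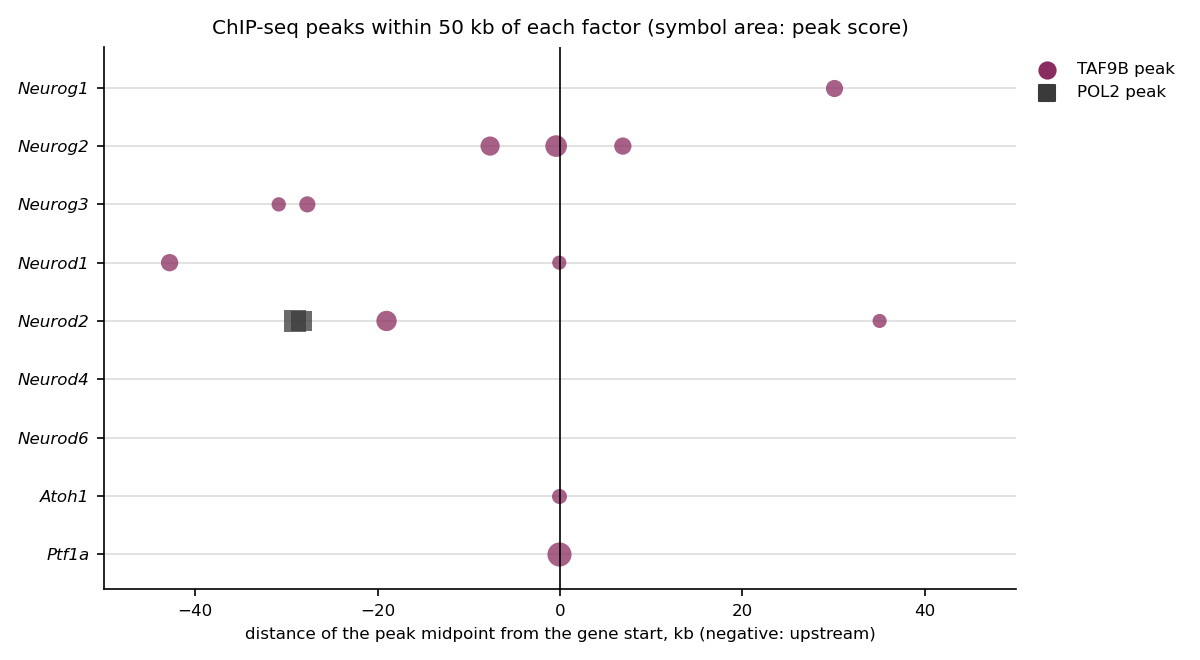
TAF9B (circles) and POL2 (squares) ChIP-seq peaks by distance of the peak midpoint from the start of each of the 9 factors, in kb, negative upstream; the area of a symbol is proportional to the peak score. Circles sit at the start of Neurog2, Neurod1, Atoh1 and Ptf1a, the Neurod4 and Neurod6 lines are empty, and the only squares, overlapping each other, are near Neurod2.

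Called POL2 peaks were rare around these genes, and a missing peak does not show that POL2 itself was absent. None of the 12 TAF9B peaks overlapped a POL2 peak, where 33.3% of all 10415 TAF9B peaks did. Just 1 of the 9 factors, Neurod2, had POL2 peaks within 50 kb, against 54.7% of all loci, and its 2 POL2 peaks were nearest to the starts of 1700003D09Rik and Stard3. No factor had a POL2 peak within 500 bp of its start, against 30% of all loci. The nearest POL2 peak was 80.0 kb away from Neurog2, 178 kb from Neurod1, 314 kb from Atoh1 and 447 kb from Ptf1a. A TAF9B peak within 500 bp of the start without a POL2 peak there was thus found at 4 of 9 factors and at 5.43% of all loci, 1189 in number. Of all 3895 loci with TAF9B at the start, 16.6% had no POL2 peak within 50 kb, and all 4 of these factors were among them.

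The levels of the factors with TAF9B alone at the start were far apart. In the EB library labelled WT at day 6, Neurog2 was at 44.3 FPKM and Neurod1 at 9.3, while Ptf1a was at 0.335 and Atoh1 at 0.116. The class of 1189 loci had a median of 3.86 FPKM, with 69.9% of loci above 1, so Neurog2 and Neurod1 stood above the median of their class and Ptf1a and Atoh1 below it. Among the 5 factors with neither peak, Neurog1 at 29.7 FPKM and Neurod4 at 8.47 stood well above the class median of 0.16, and Neurog3 at 0.132, Neurod2 at 0.018 and Neurod6 at 0 below it. Of the 14119 loci in that class, 35.1% were above 1 FPKM, so an expressed gene without a called peak is no rare event. Loci with both peaks or with POL2 alone had medians of 15.3 and 15.9 FPKM. Neurog1 and Neurog2 were thus above those medians without a POL2 peak in the cultures used for ChIP.

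**Figure D2:**
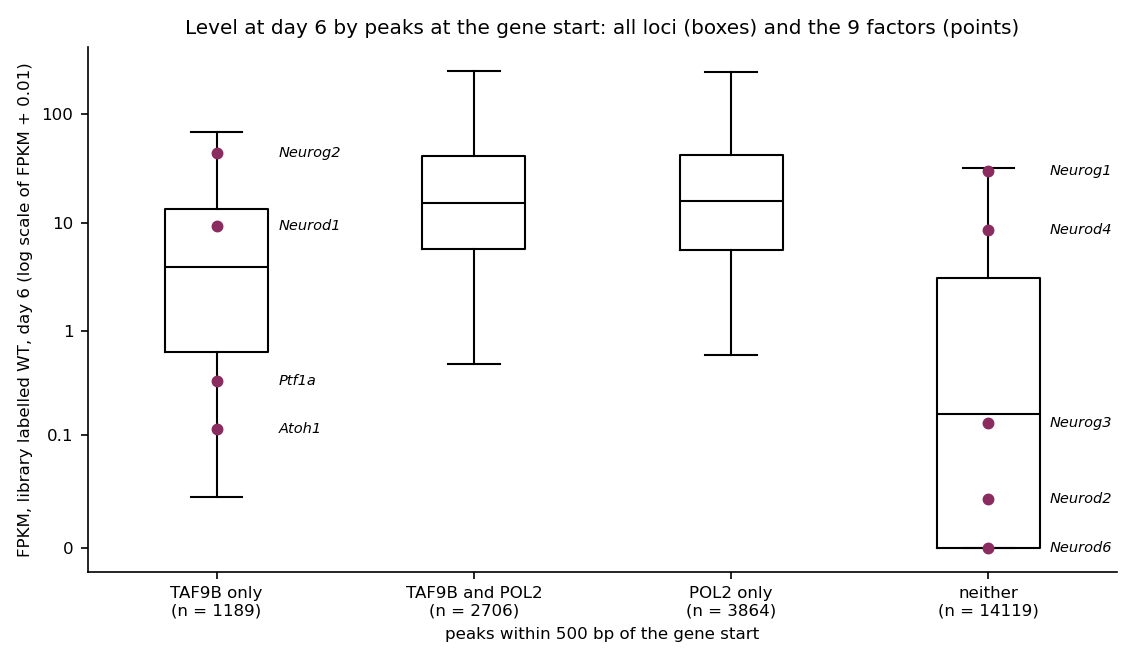
FPKM in the EB library labelled WT at day 6 (log scale of FPKM + 0.01) by the peaks that lie within 500 bp of the gene start; boxes give the quartiles and median of all loci, whiskers the 5th and 95th percentiles, and points the 9 factors. Neurog2 and Neurod1 sit above the median of the loci with TAF9B alone, Ptf1a and Atoh1 below it, and no factor is in either class with POL2.

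E-boxes were not more frequent at these peaks than elsewhere. In 201 bp windows on the peak midpoints, 7 of 12 windows near the factors held CANNTG on either strand (58.3%), against 60.6% of all TAF9B peaks. CAGATG, or its reverse complement CATCTG, was in 1 of the 12 windows and in 13.2% of all. CAGCTG was in 1 of the 12 windows and in 17.2% of all; both of these motifs are also CANNTG. In promoters of 300 bp, from 250 before to 50 after the start, CANNTG was in 5 of 9 factors (55.6%) and in 68.1% of 21789 loci. A match is only a run of letters, not evidence of binding.

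Among the neurogenins, Neurog1 was above 1 FPKM in both libraries at days 4 and 6, Neurog2 in the same ones except day 6 labelled KO, and neither in any other library. Neurog2 was listed at 0 in both ES cell libraries and at 0 and 0.057 FPKM at day 2, in the libraries labelled WT and KO. It was at 15.8 and 1.62 FPKM at day 4 and at 44.3 and 0.219 at day 6. In spinal column it was at 0.243 and 0, and in spinal cord at 0.357. The 2 highest libraries by far are thus those labelled WT at days 4 and 6, and day 4 labelled KO is the only other one above 1 FPKM. Neurog1, its closest relative, was at 0.422 and 0.462 FPKM in ES cells, 0.0754 and 0.0536 at day 2, 8.96 and 1.63 at day 4, and 29.7 and 2.93 at day 6, and it was listed at 0 in all 3 tissue libraries. Both genes had their 2 highest values in the libraries labelled WT at days 6 and 4. In the libraries labelled KO they parted, with Neurog1 higher at day 6 than at day 4 and Neurog2 lower. Neurog3 stayed between 0 and 0.179 FPKM in all 11 libraries, and no order among its libraries can be read at such levels. Of the endocrine pancreas genes, Gcg and Pax4 were listed at 0 in both day 6 libraries. Chga was at 10.9 and 5.79 FPKM there, Ins2 at 2.63 and 2.42, Pdx1 at 0.19 and 0.352, and Ins1 at 0.0412 and 0.029.

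Of the Neurod genes, Neurod4 was above 1 FPKM in culture alone, Neurod2 and Neurod6 in tissue alone, and Neurod1 in both. Neurod4 was at or below 0.0248 FPKM in ES cells and at day 2, rose to 3.89 in the library labelled WT and 0.684 in the library labelled KO at day 4, and was at 8.47 and 0.245 at day 6. It was listed at 0 in all tissue libraries, as Neurog1 was. Neurod1 differed in having reads from the start, though reads of overlapping Cerkl transcripts could not be told apart from it. It was at 2.27 and 2.29 FPKM in ES cells, 2.95 and 4.91 at day 2, 5.72 and 2.94 at day 4, 9.3 and 1.16 at day 6, 0.576 and 0.634 in spinal column and 2.36 in spinal cord. It was the only factor above 1 FPKM in ES cells and at day 2, where it made up between 78.0% and 92.5% of the summed FPKM of the 9 factors. Neurod2, by contrast, did not exceed 0.018 FPKM in any culture and was at 2.65 and 0.891 in spinal column and 8.59 in spinal cord. Neurod6 was listed at 0 in 7 of the 8 culture libraries and at 0.00426 in the other, and it was at 3.06 and 2.99 FPKM in spinal column and 12.6 in spinal cord. Neurod2 and Neurod6 were thus read in tissue and Neurod4 in culture, a contrast of sample types and not of time alone.

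The dorsal factors were at low levels in every library. Atoh1 was at 0.0335 and 0.0215 FPKM in ES cells, 0.0898 and 0.121 at day 2, 0.0919 and 0.203 at day 4, and 0.116 and 0.42 at day 6. Ptf1a was at 0 and 0.0179 FPKM in ES cells, 0 in both libraries at day 2, 0.124 and 0.0658 at day 4, and 0.335 and 0.121 at day 6. Both were listed at 0 in the 3 tissue libraries. All these values are under the filter, by which a gene was counted where either library of its table exceeded 1 FPKM, and no ratio is read from them. Both genes had a TAF9B peak at the start in the HBG3 cultures, and the Ptf1a peak score was the highest near any of the 9 factors. The RNA levels come from other lines and days, and the highest of them, 0.42 FPKM, is in a library labelled KO.

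**Figure D3:**
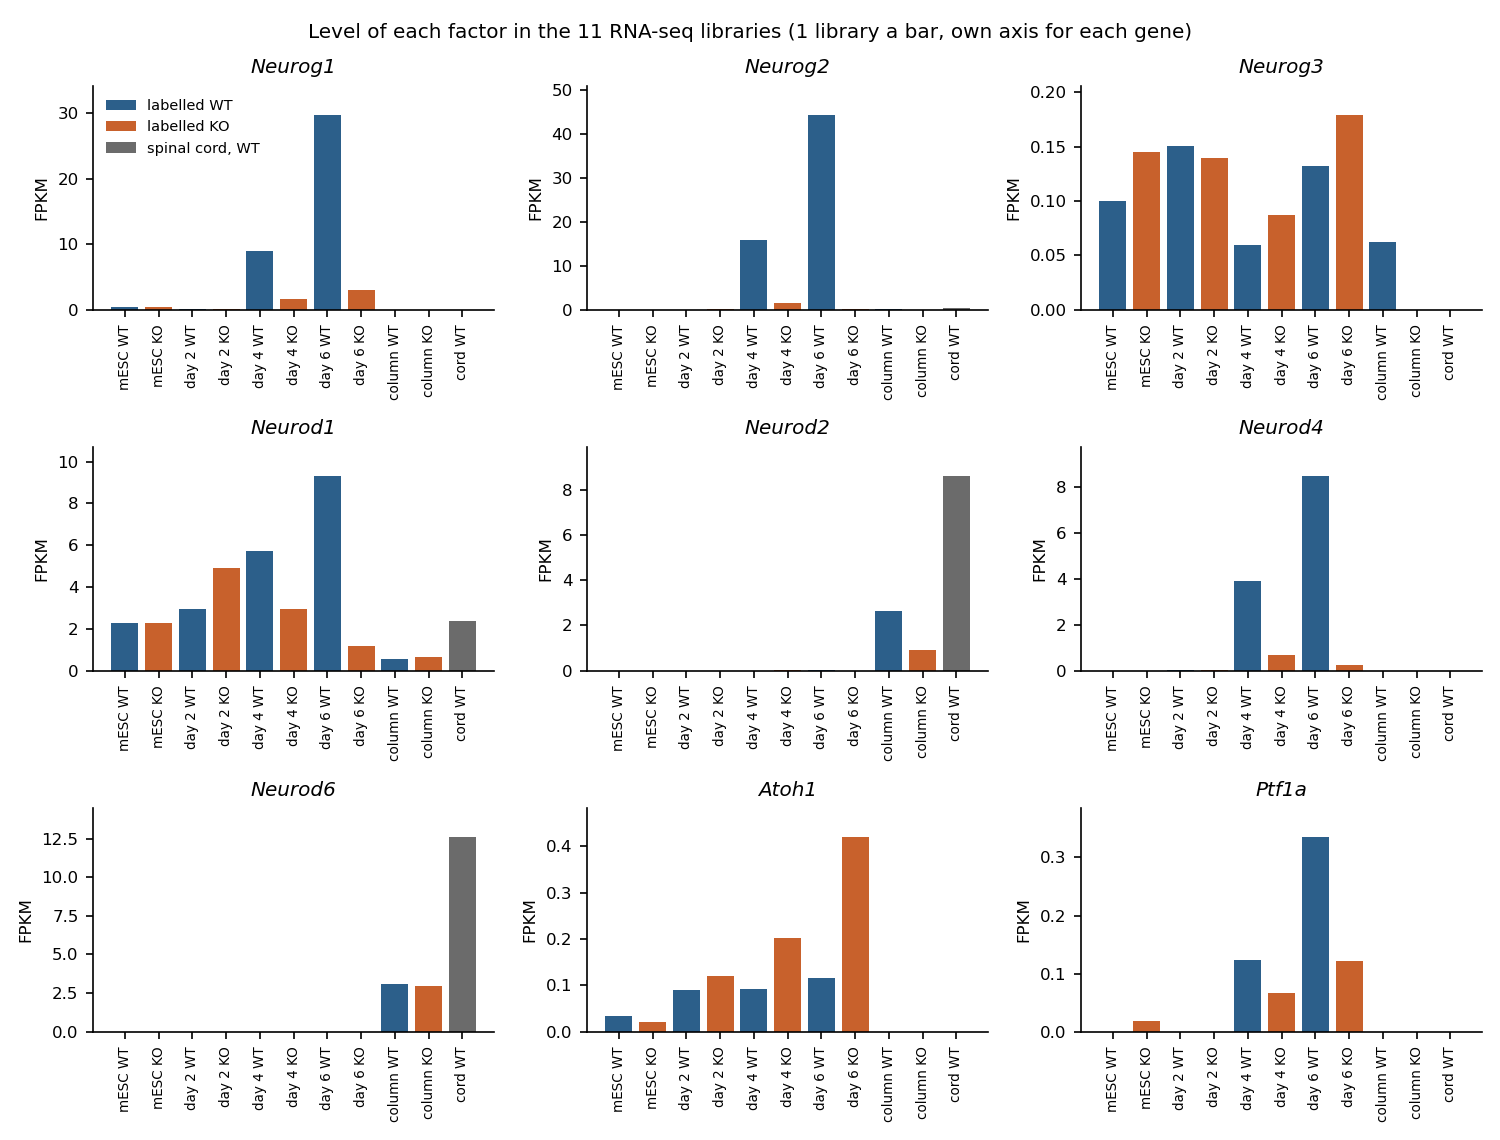
FPKM of each of the 9 factors in the 11 RNA-seq libraries, 1 bar a library, with a separate linear axis for each gene (blue, labelled WT; orange, labelled KO; grey, WT spinal cord). Neurog1, Neurog2 and Neurod4 peak in the library labelled WT at day 6 with 29.7, 44.3 and 8.47 FPKM, Neurod2 and Neurod6 in spinal cord with 8.59 and 12.6, and Neurog3, Atoh1 and Ptf1a stay under 1.

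Summed over the 9 factors, the libraries labelled WT went from 2.83 FPKM in ES cells to 3.27, 34.6 and 92.5 at days 2, 4 and 6, and those labelled KO from 2.94 to 5.3, 7.25 and 5.28. The sums were therefore close in ES cells and apart from day 4 on. Between days 2 and 4 of the libraries labelled WT, Neurog1 went from 0.0754 to 8.96 FPKM, Neurod4 from 0.0109 to 3.89 and Neurog2 from 0 to 15.8, where the earlier values are too low to give a fold, and Neurod1 rose 1.94-fold. From day 4 to day 6 the same genes rose 3.32-fold (Neurog1), 2.82-fold (Neurog2), 2.18-fold (Neurod4) and 1.63-fold (Neurod1), where 17.0% of all 12768 loci rose past 2-fold and the median log2 ratio was 0.10. In the libraries labelled KO, Neurog1 went from 0.0536 to 1.63 FPKM and Neurog2 from 0.057 to 1.62 between days 2 and 4, while Neurod1 fell 1.67-fold. Past 2-fold higher over that step were 15.6% of all loci in the libraries labelled WT and 15.4% in those labelled KO. From day 4 to day 6, Neurog2 then went from 1.62 to 0.219 FPKM and Neurod1 fell 2.54-fold, while Neurog1 rose 1.80-fold. These steps cross tables that were normalized separately.

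In ES cells and at day 2 no factor differed past 2-fold between the libraries labelled KO and WT. Only Neurod1 was above 1 FPKM, with log2 ratios of 0.01 and 0.74. Of all loci above that filter, 0.541% were past 2-fold higher and 0.591% past 2-fold lower in ES cells, and 1.19% and 1.4% at day 2. The Neurod1 ratio at day 2, 1.67-fold higher in the library labelled KO, was above those of 97.6% of the 11951 loci. The neurogenins were too low at these stages to be compared.

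At day 4, 3 of the 4 factors above the filter were lower past 2-fold in the library labelled KO and none was higher. Neurog2 was lower by 9.7-fold (log2 ratio -3.28), Neurod4 by 5.68-fold (-2.51) and Neurog1 by 5.49-fold (-2.46). Neurod1, at 1.94-fold lower (-0.96), was just short of 2-fold. Of 12543 loci, 4.43% were past 2-fold lower and 12.1% higher, so lower calls were the rarer direction at this stage. Only 53 loci had a lower ratio than Neurog2. Neurod4 passed the filter through the library labelled WT alone, and a gene that does so tends to differ by construction. With 1 FPKM added to each value, Neurog2 was at -2.67 and Neurod4 at -1.54.

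At day 6 all 4 factors above the filter were lower past 2-fold, and each ratio had moved further from 0 than at day 4. Neurog2 was lower by 203-fold (-7.66), Neurod4 by 34.6-fold (-5.11), Neurog1 by 10.1-fold (-3.34) and Neurod1 by 8.03-fold (-3.01). The size of such folds rests on low values in the library labelled KO: with 1 FPKM added to each value, the log2 ratios were -5.22 for Neurog2, -2.93 for Neurod4, -2.97 for Neurog1 and -2.26 for Neurod1. Of 12985 loci, 9.93% were past 2-fold lower and 10.5% higher, and 32 had a lower ratio than Neurog2. Neurog2 was the more abundant of the neurogenins in the library labelled WT and the less abundant in the library labelled KO. Neurog2 and Neurod4 passed the filter through the library labelled WT alone, while Neurog1 and Neurod1 were above 1 FPKM in both libraries.

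**Figure D4:**
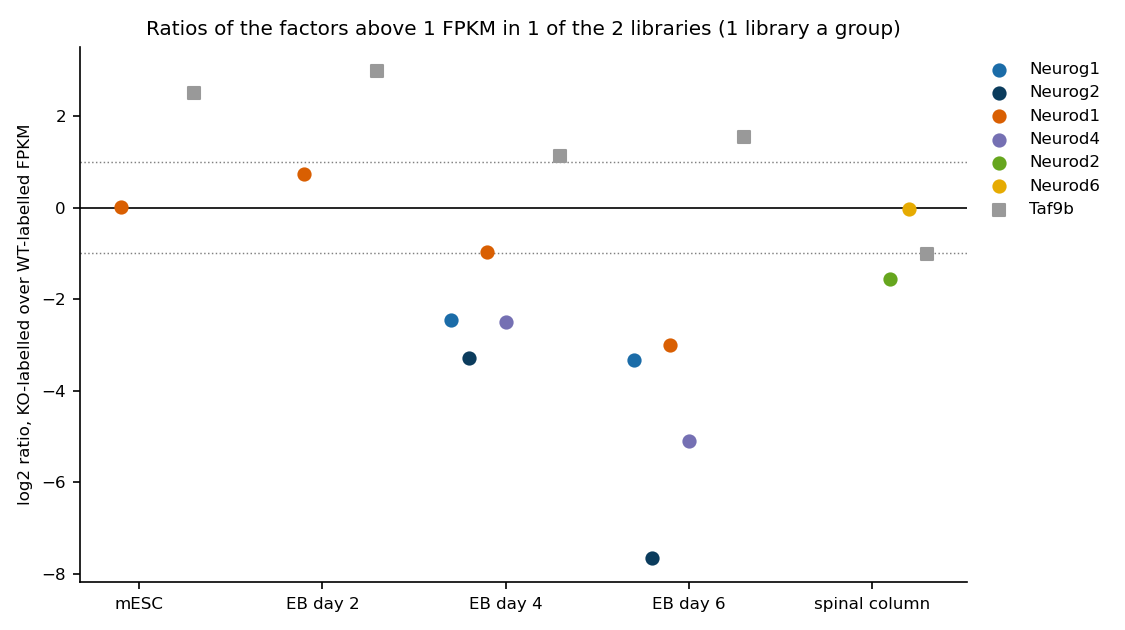
Log2 ratio of FPKM in the library labelled KO over that labelled WT for the factors that passed the 1 FPKM filter (circles) and for Taf9b (squares), at 4 culture stages and in spinal column; dotted lines mark 2-fold and each point is 1 pair of libraries. The circles are near or above 0 in ES cells and at day 2, below 0 at day 4 and between -3.01 and -7.66 at day 6.

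Markers of cell types also differed between the libraries. At day 4 all 5 ES cell markers were past 2-fold higher in the library labelled KO (summed level 180 against 30.1 FPKM) and 4 of 6 neural progenitor markers were lower, namely Olig2, Pax6, Nkx6-1 and Sox1, beside 12.1% of all loci higher and 4.43% lower. Klf4, among the ES cell markers, passed the filter through the library labelled KO alone. Neuron markers summed to 33.3 against 28.8 FPKM at that stage, with 2 of 4 above the filter past 2-fold lower, of which Elavl4 passed the filter through the library labelled WT alone, and none past 2-fold higher. The single motor neuron marker above the filter, Mnx1, was past 2-fold higher, at 5.01 against 2.32 FPKM (1.11). At day 6 all 6 neuron markers were lower (107 against 811 FPKM summed), 5 of 5 motor neuron markers above the filter were lower (2.99 against 73.4 summed over all 6), with Chat listed at 0 in the library labelled KO, and 5 of 6 progenitor markers were lower, beside 9.93% of all loci. Only 2 of the neuron markers and 1 of the motor neuron markers were above 1 FPKM in both libraries, and the rest passed the filter through the library labelled WT, where they are high. At the same stage 4 of 5 ES cell markers and all 4 simple epithelium keratins, Krt7, Krt8, Krt18 and Krt19, were higher, the keratins at 1170 against 145 FPKM summed after 327 against 52.5 at day 4, beside 10.5% of all loci higher at day 6. The library labelled WT was itself not free of ES cell transcripts, with Pou5f1 at 19.9 FPKM at day 4 and 198 at day 6. Some neuron and progenitor markers were also read in ES cells. In those labelled WT, Stmn2 was at 133 FPKM, Tubb3 at 30.5, Sox2 at 233 and Olig2 at 16.5. Sox2 was the progenitor marker not lower at day 6 (0.39). The 4 mesoderm markers were all under 1 FPKM at day 4, and only Eomes exceeded it at day 6, at 7.09 against 1.77. Sensory ganglion markers summed to 107 against 18.2 FPKM at day 4 and 36.8 against 37.1 at day 6. Prph, at 104 against 15.3 and 33.8 against 16.7, was past 2-fold higher at both stages. At day 6, 3 of 4 above the filter were past 2-fold lower, of which Isl1 and Pou4f1 passed it through the library labelled WT alone. The part of these shifts in the ratios of the factors was not tested, and in bulk RNA fewer cells of a type and less RNA per cell cannot be told apart.

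In newborn spinal column just Neurod2 and Neurod6 passed the filter. Neurod2 was 2.98-fold lower in the library labelled KO (log2 ratio -1.57), where 8.51% of 14194 loci were past 2-fold lower and 9.07% higher, and Neurod6 was 1.02-fold lower (-0.03). With each library scaled to the same summed FPKM the median of all loci moved to -0.51, the share of higher among all calls went from 51.6% to 10.9%, and the genes were at -2.12 and -0.59. Neurod2 was under 1 FPKM in the library labelled KO, and the call was lost when 1 FPKM was added to both values. The pair of libraries also differed in makeup: blood markers summed to 3110 FPKM in the library labelled KO against 983, with 2 of 3 measured markers past 2-fold higher, and 2 of 5 neuron markers above the filter were past 2-fold lower, at 441 against 692 FPKM summed over all 6. Sensory ganglion markers were at 129 against 280 FPKM, 4 of 6 past 2-fold lower. Keratins were at 19.0 against 7.07 FPKM summed, 3 of 4 past 2-fold higher, and none of 3 motor neuron markers above the filter was past 2-fold. The muscle genes Ckm and Myh8 were each listed at 0 in 1 of the libraries and high in the other, which can be failed estimates, and their Cuffdiff status left them out. The part of this makeup in the Neurod2 ratio was not tested.

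In spinal cord over ES cells, both of the WT label, Neurod2 and Neurod6 were listed at 0 in the ES cells and at 8.59 and 12.6 FPKM in the cord, 2 of 3 factors above the filter. Here 30.5% of 14348 loci were past 2-fold higher and 35.7% lower, so a call is no rare event in this comparison. The median log2 ratio of all loci was -0.26, or 0.42 with each library scaled to the same summed FPKM, and the share of higher among all calls was 46% or 62.6%. Neurod1 was at 2.36 FPKM in the cord and at 2.47 in the ES cell values of that table (log2 ratio -0.07, or 0.56 under that scaling, so no direction is read). All 6 neuron markers were higher in the cord, at 1510 against 182 FPKM summed, and Pou5f1 was listed at 0 there. Neurog2 was at 0.357 FPKM there, and Neurog1, Neurog3, Neurod4, Atoh1 and Ptf1a were listed at 0.

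The genes with the profiles most like those of the factors were looked for over the 11 libraries, each gene scaled to its own maximum, by the mean absolute difference as a percentage of the maximum over 15754 other genes. Neurog1 and Neurog2 were within 1.93% of each other, and Neurog2 ranked first among all genes for Neurog1 and for Neurod4. Mir324 (2.2%) and Mir3060 (2.35%) came next for Neurog1. The microRNA loci Mir3060 (0.669%) and Mir324 (1.5%) were nearer to Neurog2 than Neurod4 (1.72%), but FPKM of such short loci in poly-A libraries is uncertain. After Neurog2, the nearest genes of Neurod4 were Mir3060 (1.83%) and Hoxb5 (2.55%), a Hox gene of the posterior axis. Neurod1 had no close match, and its nearest genes were Sox11 (6.88%), Insm1 (8.24%) and Gm5801 (8.60%), of which Sox11 and Insm1 are neuronal differentiation factors. Neurod2 was closest to Kcnk9, Lrrc55 and Ncam2, and Neurod6 to Nxph1, Ctxn2 and Trhr, all highest in spinal cord. Neurod2 and Neurod6 differed by 1.84%, and 127 genes were closer to Neurod6 than Neurod2 was. These profiles rest on single libraries that share their normalization in pairs.

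Of the partners of the factors, none of the 3 E proteins was past 2-fold at any stage in culture. At day 4 Tcf3 was at a log2 ratio of -0.67, Tcf4 at -0.09 and Tcf12 at -0.02. At day 6 Tcf3, the gene of E2A, was at 40.7 against 78.1 FPKM (-0.94), Tcf4 at 4.31 against 6.27 (-0.54) and Tcf12 at 22.1 against 26.2 (-0.24). At day 6 all 3 dimer partners were thus read at 4.31 FPKM or more in both libraries. Of the 4 Id genes, Id1 (-1.57) and Id3 (-1.56) were past 2-fold lower at day 4, as were 4.43% of all loci, and Id2 was at -0.93 and Id4 at -0.24. At day 6 Id4 alone was past 2-fold lower (-1.32), Id2 was at -0.77, and Id1 (-0.05) and Id3 (0.09) were close to equal.

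Hes5, the Hes gene most tied to Notch in neural progenitors, was at 3.61 against 71.0 FPKM at day 4 (-4.30) and at 0.533 against 24.4 at day 6 (-5.52). Of the 7 Hes and Hey genes 5 were above the filter at each stage. At day 4 Hes5 alone was past 2-fold lower, beside Hey2 (-0.41), Hes1 (-0.22) and Hes7 (0.90). At day 6 Hes5, Hey1 (-2.68) and Hes7 (-1.58) were past 2-fold lower, Hey2 (-0.31) and Hes1 (-0.22) were not, and none was higher, where 9.93% of all loci were past 2-fold lower. Hes5 and Hes7 passed the filter there through the library labelled WT alone. Hes1, at 33.6 against 39.0 FPKM at day 6, was the most abundant of the list in both libraries.

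Among 12 other neural bHLH genes, 4 of 6 above the filter were past 2-fold lower at day 4 and 6 of 9 at day 6, beside 4.43% and 9.93% of all loci, and none was past 2-fold higher at either stage. At each stage 4 of these genes were above 1 FPKM in both libraries, 2 of them past 2-fold lower, and the rest of the lower ones passed the filter through the library labelled WT alone. The share of all loci above 1 FPKM in both libraries was not taken. Olig2, the motor neuron progenitor factor, was at 4.67 against 59.9 FPKM (-3.68) at day 4. Atoh8 (0.10) and Olig1 (-0.85) were at the upper end. At day 6 Nhlh2 was at 0.471 against 30.2 FPKM (-6.00) and Nhlh1 at 0.318 against 15.6 (-5.62), both factors of newly born neurons, while Olig1 (-0.16) and Olig3 (-0.05) barely differed.

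Genes known to act under the neurogenins were 25 in number, and the list shares Nhlh1 and Nhlh2 with the list before it and Dcx, Elavl4 and Stmn2 with the neuron markers. At day 4, 8 of 18 above the filter were past 2-fold lower and 1 was higher, with a median log2 ratio of -0.95, where 4.43% of all loci were past 2-fold lower and 12.1% higher. The higher gene, Ebf1, passed the filter through the library labelled KO alone. The lowest were Btbd17 (-2.79) and Mfng (-2.07), a Notch-modifying glycosyltransferase, and the highest were Stmn2 (0.72) and Ebf1 (2.05). Stmn2 was also read in ES cells, at 133 FPKM in the library labelled WT. At day 6, 19 of 24 were past 2-fold lower and none was higher, with a median of -3.08, beside 0.0 for all loci, of which 9.93% were past 2-fold lower. Nhlh2 (-6.00) and Myt1 (-5.73), a zinc finger factor of neurogenesis, were the lowest, and the corepressor genes Cbfa2t3 (-0.29) and Cbfa2t2 (0.29) the highest. Of the 13 target genes above 1 FPKM in both libraries at each stage, 4 were past 2-fold lower at day 4 and 9 at day 6. No share of all loci was taken under that stricter filter, so these counts have no background beside them.

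Lists tied to the dorsal factors held fewer genes above the filter. Of 8 genes downstream of Atoh1, 3 were above it at day 4 and none was past 2-fold, with Pou4f1 at -0.77, Rassf4 at -0.69 and Lhx2 at 0.66. At day 6, Pou4f1 (-1.40), above 1 FPKM in the library labelled WT alone, was past 2-fold lower and Lhx2 (0.17) was not. Of 12 genes tied to Ptf1a, 1 of 5 was past 2-fold lower at day 4 and 3 of 5 at day 6, beside 4.43% and 9.93% of all loci. All 3 at day 6 passed the filter through the library labelled WT alone, and neither of the genes above 1 FPKM in both libraries was past 2-fold lower. Gbx1 (-1.72) and Gbx2 (-0.66) were lowest and Lhx1 (0.01) and Rbpj (0.46) highest at day 4. At day 6 Lhx1 (-2.78) and Gbx1 (-1.50) were lowest, and Gbx2 (-0.44) and Rbpj (0.83), the Notch effector that Ptf1a also binds, were highest.

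**Figure D5:**
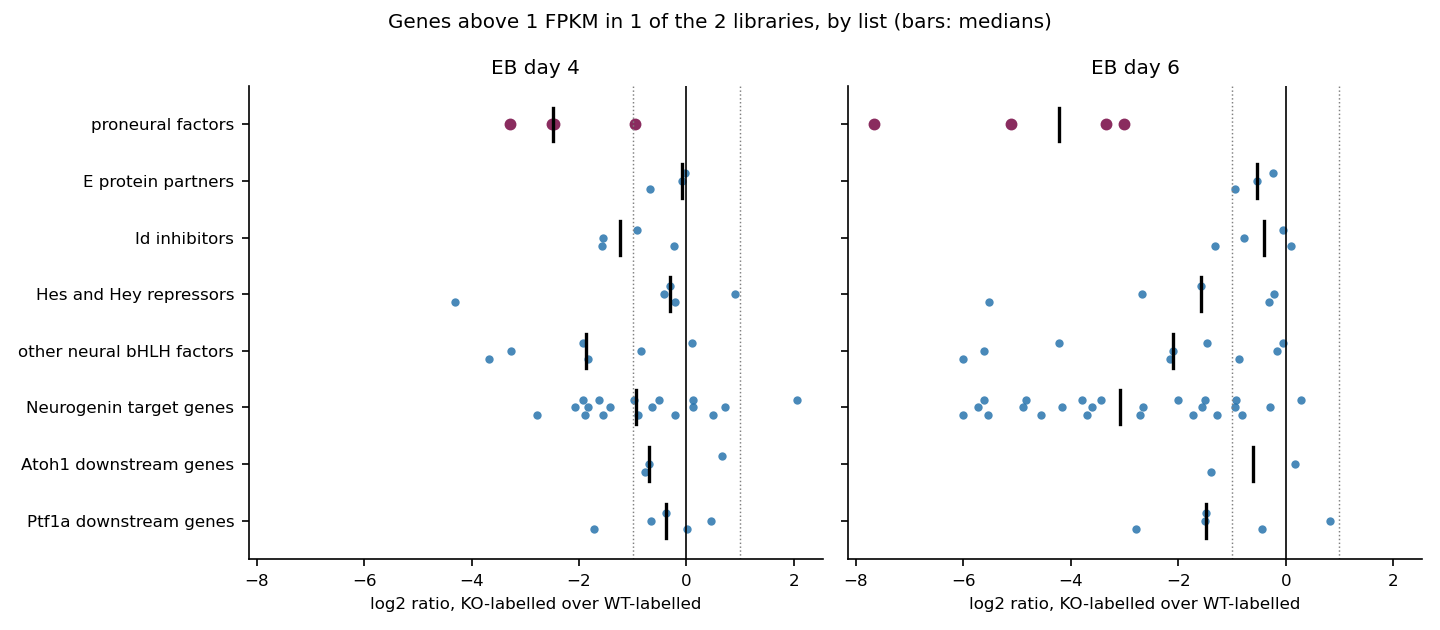
Log2 ratio of FPKM in the library labelled KO over that labelled WT at days 4 and 6, 1 point a gene that passed the 1 FPKM filter, by gene list; thick bars are list medians and dotted lines mark 2-fold. The medians of the factors go from -2.48 to -4.23 and those of the Neurogenin target genes, over 18 and then 24 genes, from -0.95 to -3.08, with genes that passed through the library labelled WT alone among them; the E proteins stay within 2-fold.

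Peaks at the starts of these genes are given by list, beside the shares of all loci within 500 bp, which are 17.8% for TAF9B, 30% for POL2 and 5.43% for TAF9B alone. All 4 Id genes had a POL2 peak within 500 bp of the start, with TAF9B as well at Id2 and Id3. Hes1, Hes5 and Hey1 had POL2 and no TAF9B. Among the other neural bHLH genes, Olig1 and Atoh7 had TAF9B alone, as the 4 factors did, and Olig2 had both. Of the 25 Neurogenin target genes, 10 had POL2, 5 had TAF9B, and 2 of those 5, Gadd45g and Mfng, had TAF9B alone. Of the 12 genes tied to Ptf1a, Gbx2 had TAF9B alone and Lhx1 both, and of the 3 E proteins Tcf4 had POL2 alone. None of the 8 genes downstream of Atoh1 had either.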

How the data were processed

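The RNA-seq tables hold FPKM values that the authors made from poly-A libraries by mapping reads to RefSeq genes in TopHat and quantifying them in Cuffdiff, 1 library per condition, and the values were used as deposited. Columns with the authors' own fold changes and p-values were not used. The peak lists hold the MACS score that the authors deposited for each peak after mapping with Bowtie to mm9. Tool versions and options, and whether IgG served as the control of the peak calls, are not given in the sources used here, and the strand of the RNA libraries is not stated either.

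Ratios were taken within a table, without a pseudocount, at loci above 1 FPKM in 1 or both libraries whose Cuffdiff status was neither FAIL nor HIDATA. A call means past 2-fold. Where a gene had 0 on one side, the ratio was left out and the gene counted as past 2-fold. Symbols came from RefSeq (22832 of 23152 loci), and strands from GENCODE vM1 or, for names it lacks, from RefSeq promoter annotation (21878 loci in all). A peak was placed by its midpoint. Sequences were read from NCBIM37, the assembly of mm9, and the primers from the study's oligonucleotide list. No interval ran beyond a chromosome end, and 112 intervals were on names absent from that genome.

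From each gene list the text names the 2 lowest and 2 highest ratios at days 4 and 6 and, for each factor above 1 FPKM, the 3 genes with the nearest profile. A gene that this rule would name is not reported here. Other genes, named from marker lists, ChIP classes and list overlaps, were picked with their values in view. The 9 members and the gene lists were chosen with earlier results of these data known. The ratio and interval steps were tested on simulated data. Scripts ran under Python 3.11.15, using pysam 0.24.0, matplotlib 3.10.9, pandas 2.3.3, numpy 2.4.6 and samtools 1.23.1.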

Additional observations from a re-analysis of the deposited data

Results flagged for a closer look

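The results below had opposite directions between time points or tissues in the libraries labelled KO over WT, past 2-fold on one side and past 1.5-fold on the other. With 1 library per condition, none of these differences was tested.

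Neurod1 was at a log2 ratio of 0.74 at day 2, of -0.96 at day 4 and of -3.01 at day 6. Taf9b was at 2.51 in ES cells, 2.98, 1.12 and 1.55 at days 2, 4 and 6, and -1.01 in spinal column. Id2 was at 1.02 in ES cells, -0.93 at day 4 and -0.77 at day 6, and Id3 was at -1.56 at day 4 and 0.90 in spinal column. Ebf1 was at 2.05 at day 4, -1.55 at day 6 and -0.95 in spinal column, from levels of 1.04 against 0.252 FPKM at day 4. Mfng was at -0.62, -2.07 and -3.44 at days 2, 4 and 6 and at 0.79 in spinal column. The spinal column ratios depend on scaling: with equal summed FPKM the median of all loci there moved from 0.06 to -0.51. The Id3 and Mfng ratios were not retaken under that scaling. Stmn2, which was at 133 FPKM in ES cells labelled WT, was at 0.72 at day 4 and -1.51 at day 6. Hes7 was at 0.90 and -1.58, from low levels of 1.11 against 0.592 FPKM at day 4 and 0.431 against 1.29 at day 6. Of the list genes whose ratios the report does not give, Insm1 (1.05 in ES cells, 0.97, -1.43 and -2.65 at days 2, 4 and 6, and -1.11 in spinal column), Hes6 (0.79 at day 2, -1.72 at day 6 and 0.66 in spinal column) and Gadd45g (0.68 at day 2 and -1.28 at day 6) met the same limits.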

How the results depend on the processing

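No paired analysis was possible because no condition has a second library, so no comparison has replicate numbers to pair, and the stages of the cultures were not used as replicates of each other; for the same reason no replicate could be left out. The 6 alternative settings gave 74 log2 ratios of the factors. The 44 that concern a ratio past 2-fold kept its direction and stayed past 2-fold, except that of Neurod2 in spinal column, at -0.95 with 1 FPKM added. Neurod1 ratios near 0 changed sign: in ES cells from 0.01 to -0.01 with centring on the median ratio and -0.03 with equal summed FPKM, and for spinal cord over ES cells from -0.07 to 0.19 and 0.56. Centring on the median ratio and scaling each library to the same summed FPKM left every count of factors past 2-fold as reported, and so did 0.1 FPKM added. With 1 FPKM added or a 4-fold threshold the count in spinal column went from 1 to 0. With no filter on low values it went to 3 in ES cells, 3 at day 2, 6 at day 4 (3 higher and 3 lower), 7 at day 6 (6 lower), 3 in spinal column and 7 for spinal cord over ES cells. With both libraries above 1 FPKM it was 2 of 2 at day 6, 2 of 3 at day 4, 0 in spinal column and 0 for spinal cord over ES cells. The shifts under other filters come from genes entering or leaving at low values. No share of all loci was taken under these filters, so the counts show only how far they move.

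With only peaks scoring above the list median, 3 factors had a TAF9B peak within 50 kb (37% of all loci) and 0 a POL2 peak (38.4%). Within 10 kb it was 4 for TAF9B (29.1% of all loci) and 0 for POL2 (38.1%), and within 100 kb 7 (67.7%) and 2 (65.8%). Asking that the factor be the nearest gene left 6 for TAF9B and 0 for POL2. The overlap of TAF9B and POL2 peaks stayed at 0 under both of its alternatives. Distances chosen after seeing the data gave 3 factors with TAF9B within 250 bp of the start (15.9% of all loci), without Neurog2, and 4 within 1000 bp (19.6%) or 2000 bp (21.4%). Depth is unknown, so no ratio was called where both values are under 1 FPKM, and a gene listed at 0 is not shown to be silent.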
